A study of Mus musculus with 4 samples.

Results

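Cells that held both Rgs5 and Acta2 transcripts were examined among single cells of 4T1 tumours. Rgs5 encodes a regulator of G protein signalling that marks pericytes, and Acta2 encodes smooth muscle actin. Members were chosen by their measured UMIs of these genes, so high Rgs5 and Acta2 in them is no finding. A cell was a member if it held at least 3 UMIs of each gene, no UMI of Pecam1 (an endothelial adhesion molecule), no UMI of Ptprc (CD45) and under 0.2% of its UMIs in the keratins Krt8 and Krt18. A UMI is a tag that counts 1 captured transcript. Barcodes were first required to hold 300 or more genes and at most 15% of UMIs from mitochondrial genes. The rule found 104 of 32133 kept cells (0.324%, exact 95% interval 0.265 to 0.392%), out of 33064 barcodes.

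The cells came from tumours of 4T1, a mouse mammary carcinoma line, grown from 1000000 cells implanted in the flank of female BALB/c mice aged 6 to 8 weeks. The mice received PBS or TIOs, a micron-scale oncolytic system made from engineered macrophages, into a vein on day 7. Near infrared light of 980 nm at 1.0 W cm-2 was shone on them for 5 min, in every group, on day 8 and again on days 9 and 10, and tumours were taken on day 13 and sorted for CD45. The series holds 4 samples, of which 2 were PBS, 1 was TIOs with 3 rounds of light (TIOs+NIR3), and 1 was titled PBS while its protocol named TIOs. The barcodes carry 4 suffixes, called libraries 1 to 4 here, but neither the labels nor the file headers say which suffix belongs to which sample. Treatments were therefore not compared, no p-value was computed, and each library is given as a sample of unknown treatment.

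Pericytes and vascular smooth muscle cells, together called mural cells, wrap the endothelial tube of blood vessels. Pericytes sit within the basement membrane of capillaries and are recruited by PDGF-B from endothelium acting on the receptor Pdgfrb, whereas smooth muscle cells surround larger vessels and contract. In tumours, mural cells are often loosely attached, and they share many transcripts with fibroblasts that have turned on contractile genes.

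Libraries 1 to 4 held 11, 50, 36 and 7 members. These were 0.140%, 0.580%, 0.531% and 0.0787% of the kept cells of each library, with exact 95% intervals of 0.0700 to 0.251%, 0.431 to 0.765%, 0.372 to 0.734% and 0.0317 to 0.162%. The intervals of libraries 2 and 3 overlapped each other and lay above those of libraries 1 and 4. Library 1 held 3012 of the 3093 cells that met the gate for tumour cells, and libraries 2, 3 and 4 held 80, 0 and 1. Whether the sort or the capture of non-immune cells set the shares of members was not tested. The members were deep, with a median of 21908 UMIs per cell (944 to 86767), and their medians in libraries 1 to 4 were 9604, 19708, 37936 and 7983. All intervals here cover counting error only, not differences between mice. Of the barcode sequences, 101 occurred in more than 1 library, and none of them was a member.

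The rule drew a line through a continuous range of Rgs5. Of the members, 4 had exactly 3 Rgs5 UMIs, all in library 3, and 3 had exactly 3 Acta2 UMIs. Just outside, 15 cells had 2 Rgs5 UMIs and 3 cells had 2 Acta2 UMIs, and a further 664 cells had 3 or more Acta2 UMIs with no Rgs5. Pdgfra, a receptor typical of fibroblasts, was detected in 100% of the 4 members at the Rgs5 limit and in 73.3% of the 15 cells just outside it. In the 81 members with 10 or more Rgs5 UMIs it was detected in 21.0%.

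The label of pericytes and smooth muscle held for most members but not for all. Clustering of the members alone gave 61 cells in cluster 1, 16 in cluster 2 and 27 in cluster 3. Clusters 1 and 2 together held 11, 50, 9 and 7 cells of libraries 1 to 4 and carried the markers of the label, and these 77 cells are called mural-like below. Igfbp5, Fgl2 and Sparcl1 were among the leading genes of cluster 1. Genes of the cell cycle such as Kif11 and Nusap1 led cluster 2. Cluster 3 held 27 cells, all of library 3, and its leading genes were Cxcl13, Grem1, Btc, Pdpn, Bst1 and Il33, none of which marks pericytes or smooth muscle.

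Pdgfrb was detected in 74 of the 77 mural-like cells (96.1%, 89.0 to 99.2%) and in 26 of the 27 cells of cluster 3. Notch3, the Notch receptor of mural cells, was detected in 72 of 77 (93.5%, 85.5 to 97.9%) but in 9 of 27 (33.3%, 16.5 to 54.0%). Higd1b, a pericyte gene of the mitochondrial membrane, was detected in 58 of 77 (75.3%, 64.2 to 84.4%) and in 0 of 27, although cluster 3 was deeper, with median counts of 41014 against 14284 UMIs. Pdgfra went the other way, in 6 of 77 (7.79%, 2.91 to 16.2%) and 26 of 27 cells (96.3%, 81.0 to 99.9%). When each cell was thinned to 2000 UMIs, which left out 3 shallow mural-like cells, Notch3 was found in 50 of 74 mural-like cells and in 0 of 27 cells of cluster 3. Pdgfrb was then found in 55 of 74 (74.3%, 62.8 to 83.8%) and 8 of 27 (29.6%, 13.8 to 50.2%), so its shares were alike only at unequal depth. Pdgfra was then found in 0 of 74 (0 to 4.86%) and 2 of 27 (7.41%, 0.910 to 24.3%). Few cells of either set held Pdgfra at that depth, so these shares cannot say whether the sets differ. Neutrophils, which should lack these genes, held Notch3 in 0.263% and Rgs5 in 0.716% of cells at a median of 1848.5 UMIs.

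Cluster 3 held 1263099 of the 2614764 UMIs of the members, so any level summed over all 104 cells is close to an average of 2 unlike sets. Levels are therefore given for the 77 mural-like cells and the 27 cells of cluster 3 side by side, a division chosen after the clusters were seen. The clusters were drawn from these same values, so contrasts between the 2 sets, in levels or in shares, only describe them. They are counts per 1000000 UMIs of the summed cells (CPM), and since each UMI counts a transcript once at its 3′ end they need no correction for gene length. They were set beside 2036 fibroblasts, cells with 3 or more UMIs of both Col1a1 and Col1a2, at least 1 of Pdgfra and none of Rgs5, and beside 228 endothelial cells with 3 or more UMIs of Pecam1 and at least 1 of Cdh5. No test was run on any ratio, because cells are not replicates. Pdgfra, rarely found in either set after thinning, was at 85.5 CPM in cluster 3, against 7.84 CPM in cluster 1 and 3.02 CPM in cluster 2. Thinned in the same way, 46.5% of 2026 fibroblasts held Pdgfra, which their gate required.

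**Figure D1:**
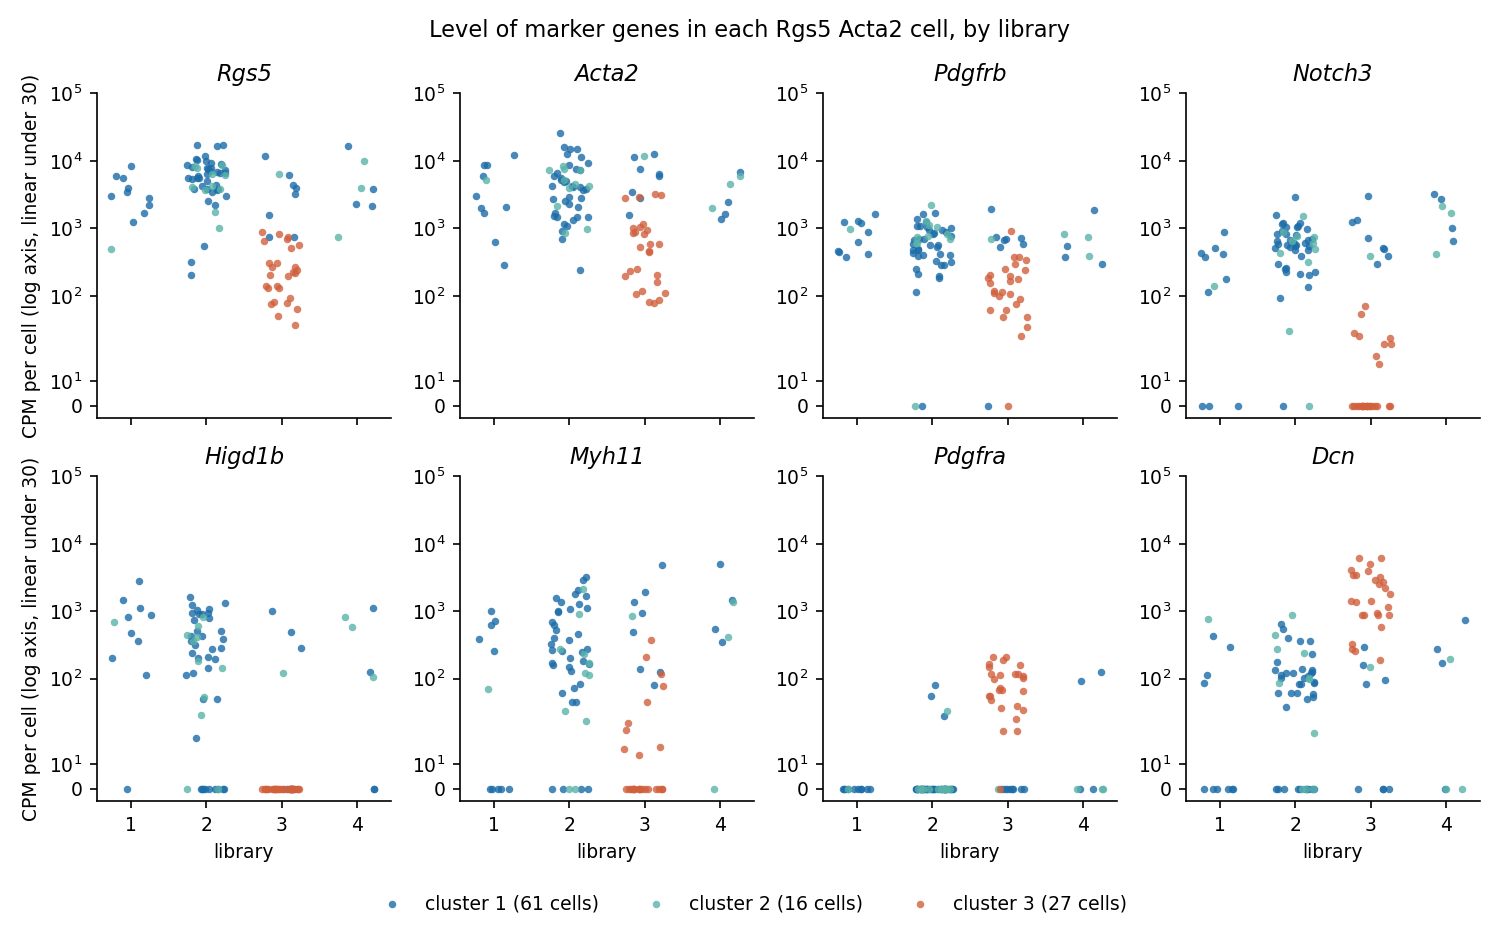
Level of 8 genes in each of the 104 cells, in CPM on a log axis that is linear under 30, by library, with colours for the clusters. The 27 cells of cluster 3, all in library 3, lie at 0 for Higd1b and mostly at 0 for Notch3, while the other 9 cells of library 3 lie among those of libraries 1, 2 and 4 for Notch3. For Higd1b, 4 of these 9 cells lie above 0.

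Rgs5 reached 5053 CPM (95% interval 4934 to 5174) in mural-like cells and 255 CPM in cluster 3. In single mural-like cells it ran from 205 to 17272 with a median of 5076 CPM, and in cluster 3 from 36.9 to 893 with a median of 214 CPM, so the ranges overlapped although the rule required only 3 UMIs of either. The mural-like cells of libraries 1 to 4 held 3567, 5428, 3956 and 4106 CPM of Rgs5 and 4609, 5163, 7248 and 3087 CPM of Acta2. These values are set in part by the rule.

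Pericyte genes that the rule did not use were high in the mural-like cells of all 4 libraries. The clustering did use them, so their contrast with cluster 3 only describes the clusters. Only library 3 lost members to cluster 3. Pdgfrb was at 802, 666, 706 and 598 CPM in libraries 1 to 4, against 91.8 CPM in fibroblasts and 36.5 CPM in endothelial cells, and it was at 165 CPM in cluster 3. Notch3 was at 301, 590.0, 541 and 1584 CPM, against 7.71 CPM in fibroblasts and 10.3 CPM in cluster 3. Library 4 was the highest for Notch3 and library 1 the lowest, with 7 and 11 cells behind these values. Higd1b was at 852, 365, 98.3 and 307 CPM, with 0.0817 CPM in fibroblasts. Library 1 was the highest and library 3 the lowest for Higd1b, and all 4 lay above endothelial cells at 17.0 CPM. Cspg4, which encodes the NG2 proteoglycan of pericytes, was at 150.3, 183, 111 and 210.1 CPM, and only 1 UMI of it was found in cluster 3.

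The pair Kcnj8 and Abcc9 encodes the pore and the regulatory subunit of a potassium channel that closes when ATP is high. Kcnj8 was at 441, 342, 184 and 339 CPM and Abcc9 at 421, 373, 362 and 824 CPM in the mural-like cells of libraries 1 to 4. Cluster 3 held 58.6 and 97.4 CPM, lower than the mural-like cells of every library but above fibroblasts at 7.30 and 11.3 CPM. Both subunits were detected together in 53 of 77 mural-like cells (68.8%, 57.3 to 78.9%) and in 16 of 27 cells of cluster 3 (59.3%, 38.8 to 77.6%). Cox4i2, an isoform of a cytochrome oxidase subunit, was about as high in cluster 3 (345 CPM) as in mural-like cells (354 CPM), against 37.0 CPM in fibroblasts.

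Of 3488 genes with at least 50 CPM in either class, 98 (2.81%) were at least 4-fold higher in the 104 members than in fibroblasts and 110 (3.15%) were at least 4-fold lower. Without cluster 3, 187 of 3680 (5.08%) were higher and 182 (4.95%) lower in the mural-like cells. In library 2 alone, with 50 mural-like cells and 795 fibroblasts, 183 of 3701 (4.94%) were higher and 237 (6.4%) lower. In library 3 alone, where cluster 3 made up 27 of 36 members, 58 of 3372 (1.72%) were higher and 80 (2.37%) lower in members. Of the 24 genes of the pericyte list, 22 were tested against fibroblasts in the mural-like cells, 18 were higher and 0 lower. Their median log2 fold was 4.24, beside 0.07 over all genes tested. Rgs5 belongs to this list and was set at 0 in fibroblasts by their gate. Tested genes under 50 CPM in the other class passed the minimum only through the mural-like cells. Counts of higher genes in this and later lists are therefore set in part by that minimum. In library 2 alone the count was 18 of 23.

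Against endothelial cells, 196 of 3871 genes (5.06%) were at least 4-fold higher in the 104 members and 257 (6.64%) lower. For the mural-like cells these counts were 239 (6.07%) and 255 (6.48%) of 3936, in library 2 alone 233 (5.95%) and 259 (6.61%) of 3917, and in all members of library 3 171 (4.37%) and 320 (8.17%) of 3917. Of 22 pericyte genes tested, 19 were higher and 0 lower. Mcam, an adhesion molecule that both cell types carry, was at 391 CPM in mural-like and 324 CPM in endothelial cells. Rgs5 itself was at 386 CPM in the endothelial gate, which did not bar it. In all, 110 genes were 4-fold higher in mural-like cells than in both other classes, and 97 of these 110 were so in library 2 alone. Beyond the lists, Gm13889, an unnamed gene model, was at 1858 CPM against 21.3 and 76.0 CPM in fibroblasts and endothelial cells. Kcnk3, Trpc6, Adra2a and Ramp1, described below with the channels and receptors, were among the 10 genes with the largest such ratio.

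**Figure D2:**
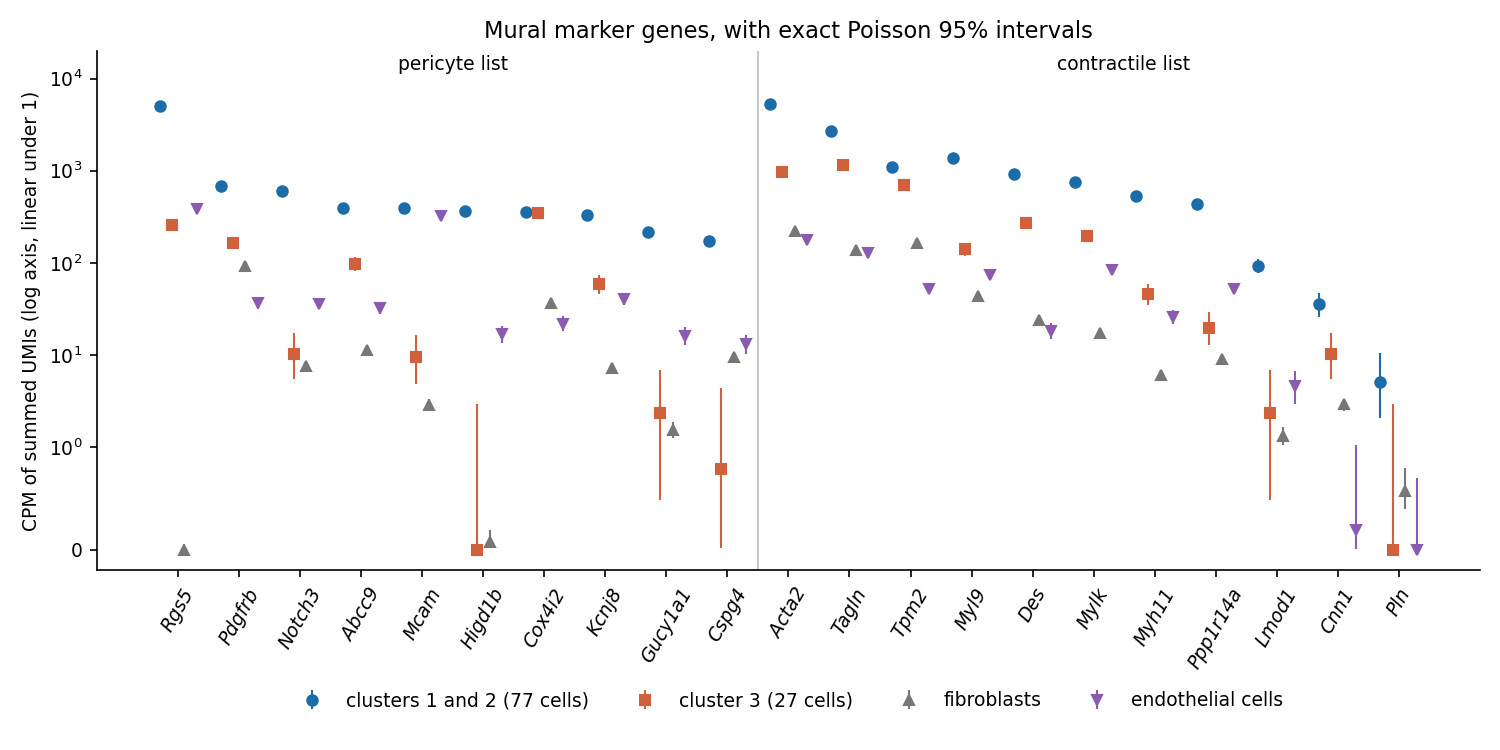
Levels of 21 genes of the pericyte and contractile lists in CPM of summed UMIs, on a log axis that is linear under 1, with exact Poisson 95% intervals. The 77 mural-like cells lie above fibroblasts and endothelial cells for all 21 genes, with the endothelial level of Mcam the nearest, while cluster 3 lies near fibroblasts for Notch3, Mcam, Gucy1a1 and Lmod1.

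Contractile genes were present in the mural-like cells of every library. Tagln, an actin-binding protein of smooth muscle, was at 1192, 2839, 2672 and 3411 CPM in libraries 1 to 4. Myh11, the myosin heavy chain of smooth muscle, was at 301, 495, 608 and 1245 CPM, and fibroblasts held 6.08 CPM. Des, an intermediate filament of muscle, was at 401, 950.2, 1130.2 and 598 CPM, and Myl9, a regulatory light chain of myosin, at 812, 1443, 1210.0 and 1342 CPM. Library 1 was the lowest and library 4 the highest for both Tagln and Myh11. Of 29 contractile genes, 19 were tested against fibroblasts, 17 were higher and 0 lower, where 5.08% and 4.95% of all 3680 genes were. The median log2 fold of the 19 was 4.97. Against endothelial cells 16 of 19 were higher and 0 lower, where 6.07% and 6.48% of all 3936 genes were. Acta2, which the rule used, is on this list. Actg2, whose transcript is close to those of the other actins, was 186-fold higher than in fibroblasts, and its reads may in part be shared with them.

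Genes of the contractile list ranged widely in how many mural-like cells held them. Lmod1, an actin nucleator of muscle, was detected in 54.5% of the 77 cells at 92.5 CPM, Actg2 in 35.1% at 365 CPM and Casq2, a calcium store protein, in 26.0% at 52.5 CPM. Cnn1, which encodes calponin, was detected in 7 of 77 mural-like cells (9.09%, 3.73 to 17.8%) and stood at 35.5 CPM. Pln, a regulator of the calcium pump, was found in 2 cells at 5.18 CPM, and Myocd, a master coactivator of smooth muscle genes, in 15 cells at 17.8 CPM. A pericyte gene (Kcnj8, Abcc9 or Higd1b) was found together with Myh11 in 63 of the 77 cells (81.8%, 71.4 to 89.7%), without Myh11 in 10, and Myh11 alone in 2. Most cells thus held Myh11 together with a pericyte gene at their own depth. The rule required Rgs5 and Acta2, which are on the pericyte and contractile lists, so joint presence is set in part by the rule. After the thinning described above, Myh11 was found in 45.9% of 74 mural-like cells. Kcnj8 was then found in 36.5%, Abcc9 in 55.4% and Higd1b in 45.9%, and joint detection was not counted at that depth.

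Another set of cells with contractile genes lay outside the rule. A group of 30 cells had 3 or more UMIs of both Acta2 and Myh11, no Rgs5 UMI, and passed the same exclusions (1, 5, 23 and 1 in libraries 1 to 4, median 11192 UMIs). Acta2 stood at 22390.4 CPM and Myh11 at 3921 CPM in them, both genes that chose these cells. Cnn1 was detected in 28 of the 30 at 600.1 CPM and Pln in 26 at 449 CPM. For comparison, the 49 mural-like cells with 3 or more Myh11 UMIs, deeper at a median of 19735 UMIs, held Cnn1 in 7 cells at 46.6 CPM. These 49 cells were 5, 33, 7 and 4 in libraries 1 to 4. The 2 sets thus differ in library as well, and the part of library in the values was not tested. Pericyte genes were present in the 30 cells too. Notch3 was detected in 26, Pdgfrb in 24 and Higd1b in 16 of them. Kcnj8 was at 24.7 CPM in the 30 cells and 300.2 CPM in the 49, and Notch3 at 365 and 619 CPM, while Cspg4 was higher in the 30 at 262 against 160.3 CPM. The contractile genes did not all differ in 1 direction. Tagln was at 15738 CPM in the 30 cells against 3369 CPM in the 49, and Lmod1 at 649 against 106 CPM, but Des was lower at 459 against 1038 CPM and Actg2 lower at 301 against 471 CPM. Both sets were defined after the values were seen.

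Many contractile genes are switched on by serum response factor through a short DNA word, the CArG box, a run of A or T between a pair of C and a pair of G. In RefSeq promoter windows of GRCm38.p6, from 250 bases before to 50 bases after each gene's start and on both strands, the box was found in 488 of 27025 genes (1.81%). Of the 29 contractile genes 23 had a window, and 2 of these (8.70%) held the box, Myl9 and Srf. None of the 16 pericyte genes with a window held it. A match is a string of letters, not a shown binding site, and the absence of a match says only that the letters are not in the window. Both promoters are printed 5′ to 3′ with the box in capitals, Myl9 at chr2:156775214-156775513 on the + strand and Srf at chr17:46556113-46556412 on the - strand, because they are the only contractile genes of the list that matched.
Myl9: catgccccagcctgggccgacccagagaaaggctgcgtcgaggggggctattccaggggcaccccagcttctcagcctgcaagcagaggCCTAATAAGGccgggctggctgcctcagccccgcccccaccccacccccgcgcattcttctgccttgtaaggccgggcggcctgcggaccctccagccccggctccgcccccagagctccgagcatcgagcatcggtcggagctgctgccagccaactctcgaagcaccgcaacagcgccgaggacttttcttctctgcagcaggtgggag
Srf: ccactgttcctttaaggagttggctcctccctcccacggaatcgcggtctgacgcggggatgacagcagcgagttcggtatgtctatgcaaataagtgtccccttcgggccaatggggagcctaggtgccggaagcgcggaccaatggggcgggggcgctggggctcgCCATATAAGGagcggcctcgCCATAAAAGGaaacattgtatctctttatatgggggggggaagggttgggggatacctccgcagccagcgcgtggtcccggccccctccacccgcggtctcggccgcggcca
In Myl9 the box lay 161 to 152 bases before the start, and the gene was 31.3-fold higher in mural-like cells than in fibroblasts. In Srf, the gene of the factor itself, boxes lay 82 to 73 and 62 to 53 bases before the start, and the level was 29.6 CPM in mural-like cells and 18.3 CPM in fibroblasts, under the minimum of 50 CPM.

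Ligands and receptors of the vessel wall were divided between mural-like and endothelial cells. Pdgfb, the ligand of Pdgfrb, was at 157 CPM in endothelial cells and 8.14 CPM in mural-like cells, and its receptor the other way at 36.5 and 678 CPM. Pdgfa, the ligand of Pdgfra, was at 351, 641, 473 and 339 CPM in the mural-like cells of libraries 1 to 4 and 37.9 CPM in fibroblasts. Each library lay above the fibroblasts, and Pdgfra was at 289 CPM in fibroblasts and 6.66 CPM in mural-like cells.

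In the Notch pathway, Dll4, a ligand of endothelium, was at 106 CPM in endothelial cells with 2 UMIs in mural-like cells. Jag1, another ligand, was at 95.4 CPM (95% interval 79.7 to 113) in mural-like cells and 42.4 CPM in endothelial cells. Heyl, a target of Notch3, was at 65.1 CPM against 3.69 CPM in fibroblasts and 3.63 CPM in endothelial cells. Nrarp, a feedback inhibitor, was at 82.1 and 81.6 CPM in mural-like and endothelial cells. Of 17 genes of the pathway, 7 were tested against fibroblasts. Of these 4 were higher (Notch3, Jag1, Heyl, Nrarp) and 0 lower, where 5.08% and 4.95% of all 3680 genes were. In library 2 alone Jag1 was under the 4-fold line at 91.5 against 23.1 CPM, while Notch1 was called higher, so the count there was also 4 of 7.

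Angpt1, the ligand that pericytes present to the endothelial receptor Tek, was low at 23.7 CPM, and Angpt2, its competitor, was at 71.0 CPM (95% interval 57.5 to 86.7) in mural-like and 92.3 CPM in endothelial cells. Angpt2 in libraries 1 to 4 was at 10.0, 78.9, 49.1 and 97.0 CPM, against 0.915 CPM in fibroblasts. Flt1, a VEGF receptor that can act as a decoy, was at 451, 207, 246 and 0 CPM, with no UMI in the 61866 UMIs of library 4, which allows up to 48.5 CPM. Kdr, the main signalling receptor, had 2 UMIs in mural-like cells and 403 CPM in endothelial cells. Vegfa was at 30.3 CPM in mural-like cells, 179 CPM in fibroblasts and 343 CPM in cluster 3. Of 8 genes of this list tested against fibroblasts, 3 were higher and 2 lower, where 5.08% and 4.95% of all 3680 genes were. Angpt2, Flt1 and Epas1 were the higher ones, and Vegfa and Vegfd the lower. Epas1, the hypoxia factor HIF-2 alpha, was at 351, 519, 516 and 614 CPM, 11.0-fold above fibroblasts over all libraries.

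**Figure D3:**
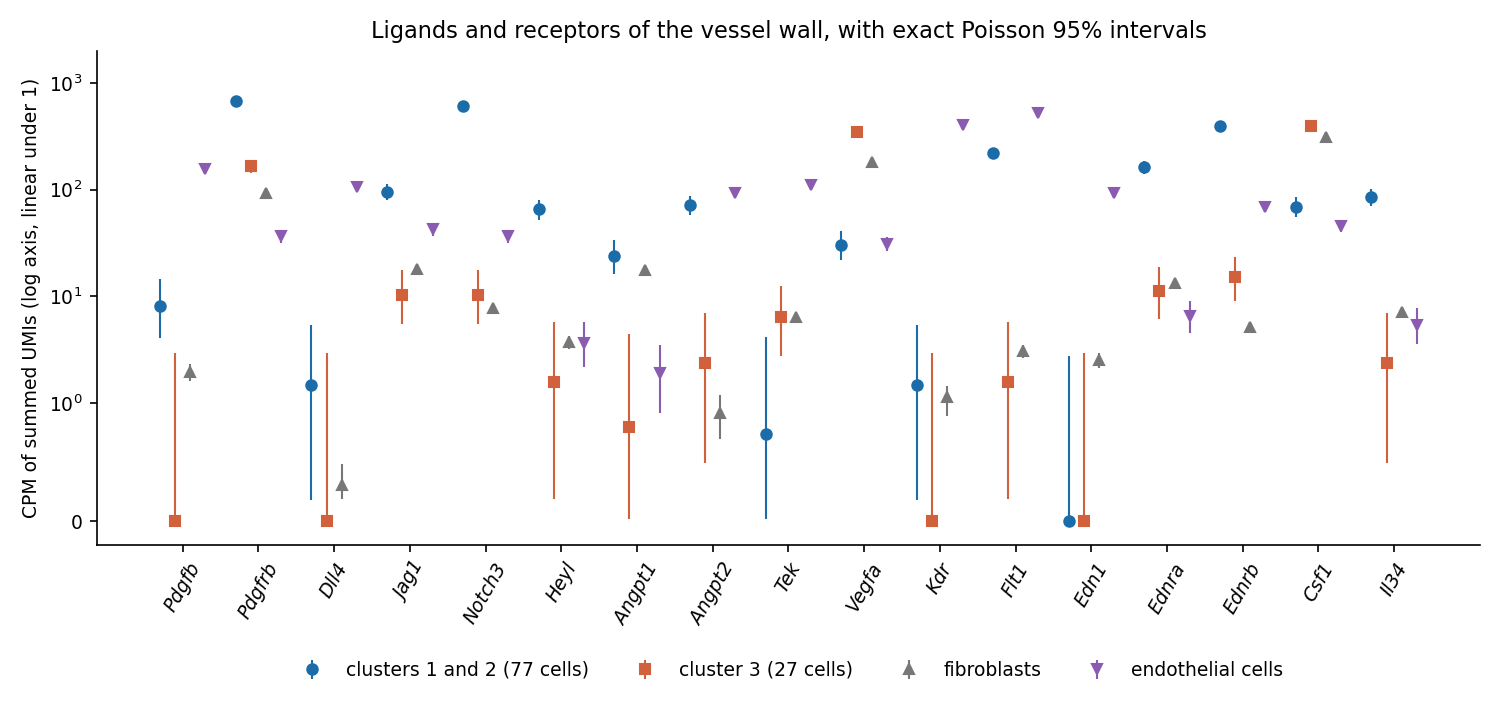
Levels of 17 ligands, receptors and targets in CPM of summed UMIs, on a log axis that is linear under 1, with exact Poisson 95% intervals, for the 77 mural-like cells, cluster 3, fibroblasts and endothelial cells. Pdgfb, Dll4, Kdr, Tek and Edn1 are highest in endothelial cells, and Pdgfrb, Notch3, Ednra and Ednrb in mural-like cells.

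Receptors that set vessel tone formed another group. Ednra and Ednrb, the receptors of endothelin, were at 130.3, 155, 190.4 and 242 CPM and 551, 373, 455 and 307 CPM in libraries 1 to 4. Edn1, the ligand, was at 93.2 CPM in endothelial cells and at 0 of 1351665 UMIs in mural-like cells, which allows up to 2.22 CPM. Adra2a, an adrenergic receptor, was at 50.1, 138, 123 and 80.8 CPM and was 55.2-fold above fibroblasts. Ramp1, a partner of the CGRP receptor, was at 148 CPM against 3.33 and 2.67 CPM in fibroblasts and endothelial cells. The nitric oxide receptor, made of Gucy1a1 and Gucy1b1, was at 215 and 194 CPM, and Gucy1a1 ran over 30.1, 221, 209 and 420.3 CPM in libraries 1 to 4. Prkg1, the kinase that acts after it, was at 51.0 CPM. In cluster 3, Adra2a and Prkg1 were at 0 of 1263099 UMIs, which allows up to 2.38 CPM, and Gucy1a1 was at 2.38 CPM. Of 35 vasoactive and cyclic nucleotide genes, 13 were tested against fibroblasts. Of the 13, 9 were higher and 1, Adm, was lower, where 5.08% and 4.95% of all 3680 genes were.

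Ion channels followed. Trpc6, a cation channel, was at 69.5 CPM in mural-like cells, 0.0653 CPM in fibroblasts and 0.955 CPM in endothelial cells. Ano1, a chloride channel opened by calcium, was at 90.2, 98.3, 147 and 210.1 CPM. Kcnk3, a background potassium channel, was at 74.0 CPM, against 0.0980 CPM in fibroblasts. Of 9 channel and calcium genes tested, 6 were higher than in fibroblasts and 0 lower, where 5.08% and 4.95% of all 3680 genes were. Of the RGS family, 3 genes of 20 passed the minimum and were higher, Rgs4 (281, 217, 203 and 113 CPM), Rgs16 (701 CPM) and Rgs5, which the rule used. Rgs4 was at 2.19 CPM in fibroblasts and passed only through the mural-like cells. Rgs16 passed in both classes, at 53.4 CPM in fibroblasts.

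**Figure D4:**
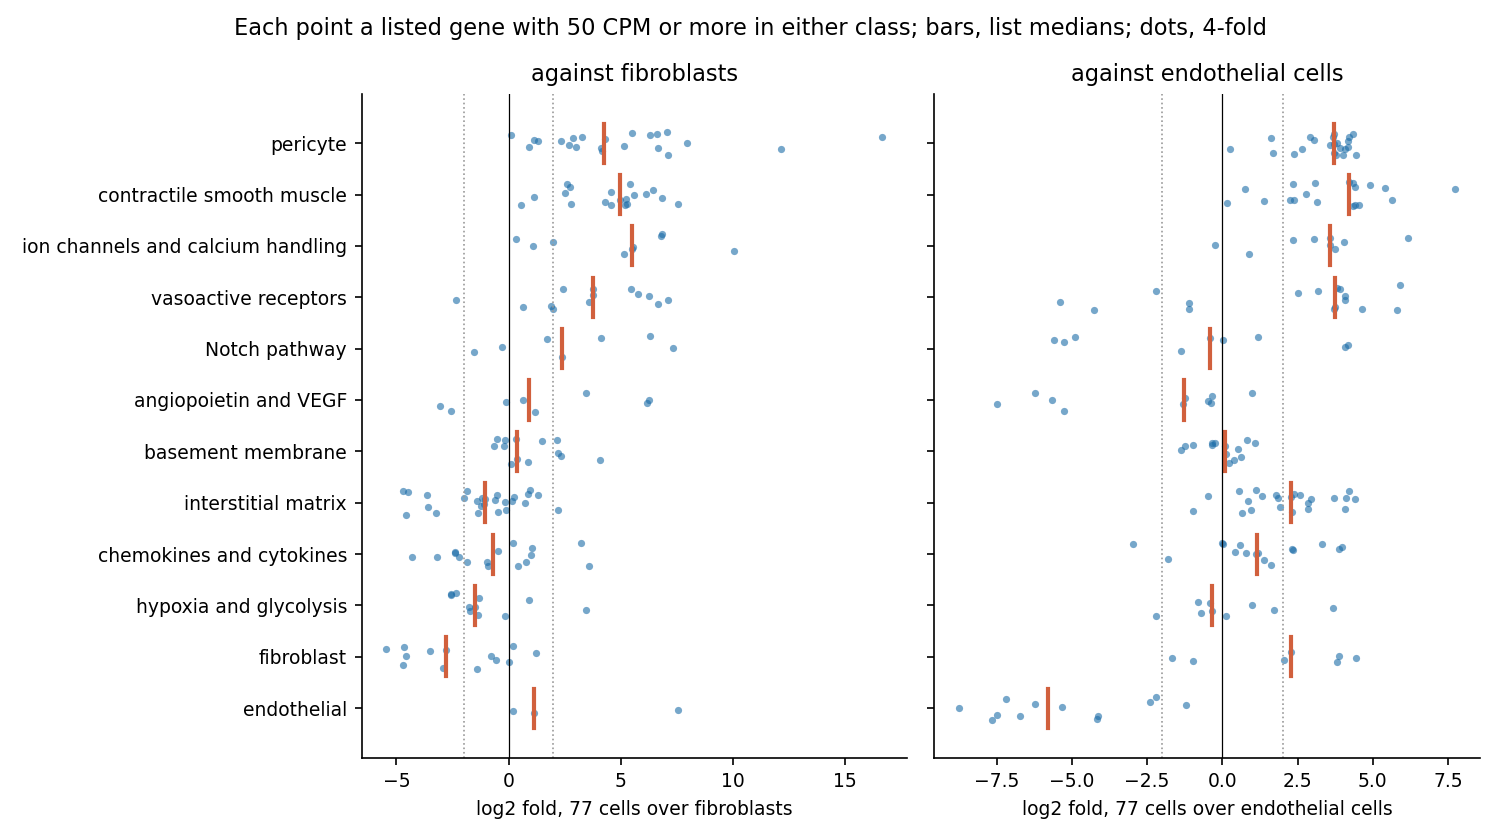
Log2 fold of each listed gene with 50 CPM or more in either class, for the 77 mural-like cells over fibroblasts (left) and over endothelial cells (right), with bars at list medians and dotted lines at 4-fold. The medians of the pericyte, contractile, ion channel and vasoactive lists lie right of the 4-fold line on both sides, and that of interstitial matrix changes sign between the sides. On each side, genes under 50 CPM in the other class entered only through the mural-like cells. The position of these medians is set in part by that minimum and by Rgs5 and Acta2, which the rule used. The point farthest right is Rgs5, set against 3 counts because the fibroblast gate held it at 0.

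Basement membrane genes of mural-like cells were close in level to those of endothelial cells. Col4a1 and Col4a2, the chains of collagen IV, were at 2124, 2729.8, 2469 and 2101 CPM and 1303, 1192, 1007 and 938 CPM in libraries 1 to 4, with 2253 and 1081 CPM in endothelial cells and 517 and 252 CPM in fibroblasts. Col18a1, which also carries endostatin, was at 772, 616, 645 and 969.8 CPM, 16.7-fold above fibroblasts, with 448 CPM in endothelial cells. No gene of the 14 tested was 4-fold different from endothelial cells. Against fibroblasts 4 of 13 were higher, where 5.08% of all 3680 genes were. In library 2 alone only Col18a1 was, and Col4a1 there stood at 2729.8 against 695 CPM.

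Interstitial matrix lay between the other classes. Col1a1 was at 3387, 2453, 2610.5 and 388 CPM in mural-like cells, 6446 CPM in fibroblasts and 498 CPM in endothelial cells. Dcn, a proteoglycan of fibroblasts, was at 160.3, 152, 117 and 323 CPM and 4030.3 CPM in fibroblasts, -4.69 on the log2 scale. Timp3, an inhibitor of matrix proteases, was at 584 against 127 CPM. Of 26 matrix genes tested against fibroblasts 1, Timp3, was higher and 6 were lower, where 5.08% and 4.95% of all 3680 genes were. The count of higher genes is near that share and is no finding about the list. Against endothelial cells 12 of 23 were higher, where 6.07% of all 3936 genes were. In library 2 alone 0 were higher and 10 lower than in fibroblasts, with Timp3 at 552 against 155 CPM and Col1a1, Col1a2, Col3a1 and Tnc added to the lower genes. The fibroblast list had 7 of 13 genes lower and 0 higher in mural-like cells, namely Pdgfra, Dpt, Lum, Dcn, Pi16, Col14a1 and Clec3b lower. Pdgfra, Col1a1 and Col1a2 were part of the gate for fibroblasts, so their higher levels there are set in part by that gate.

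Secreted factors were abundant in mural-like cells. Cxcl1, which draws neutrophils, was at 2425, 2592, 2340.2 and 1083 CPM in libraries 1 to 4, and Ccl2, which draws monocytes, at 862, 2059, 2168 and 194 CPM. Library 4 was lowest for both, and fibroblasts held 2157 and 2629.8 CPM. Il6 was at 429 CPM against 216 CPM in fibroblasts. Il34 and Csf1 bind the same receptor on macrophages, and they were divided, Il34 at 85.1 CPM in mural-like cells and 7.09 CPM in fibroblasts, Csf1 at 68.8 and 313 CPM. Cxcl12 was -3.17 on the log2 scale relative to fibroblasts, and Cxcl5 -4.30. Of 16 tested, 2 (Cxcl9 and Il34) were higher than in fibroblasts and 5 lower, where 5.08% and 4.95% of all 3680 genes were. Csf1 was among the lower ones. In library 2 alone 1 of 16, Il34, was higher and 6 were lower, and Csf1 was not called. Cxcl9 rested on library 1, as its values of 3076, 16.6, 18.4 and 0 CPM show.

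Of the TGF-beta and BMP list, 2 of 18 genes were higher than in fibroblasts and 4 lower, where 5.08% and 4.95% of all 3680 genes were. Tgfb3 and Id4 were the higher ones, and Tgfbr2, Tgfbr3, Tgfbi and Inhba the lower. The count of higher genes is too near that share to be a finding about the list. Tgfb3, a ligand, was at 0, 94.4, 61.4 and 16.2 CPM in libraries 1 to 4, against 12.6 CPM in fibroblasts. Id4, an inhibitor of transcription factors, was at 51.8 against 3.35 CPM.

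Library 1 stood apart in antigen presentation. Its 11 mural-like cells held 11904 CPM summed over the 22 interferon and antigen presentation genes, against 3001, 3139 and 3702 CPM in libraries 2, 3 and 4. H2-D1, a class I heavy chain, was at 3216, 516, 448 and 695 CPM. Library 1 was also the highest in fibroblasts, at 7641 CPM in library 1 and 2967, 2128 and 2923 CPM in the others, and in endothelial cells at 17200.3 CPM against 4127, 5899.6 and 6429 CPM. Library 1 was also highest for immediate early genes, at 23768 CPM in mural-like cells against 10938, 12844 and 8454 CPM. The same held in fibroblasts, at 17375.5 against 11866, 8490 and 6567 CPM, and in endothelial cells, at 17901 against 8487, 8602 and 10828.5 CPM. The mural-like cells of library 1 held 661 CPM of the 11 tumour or epithelial genes, against 86.6, 43.0 and 16.2 CPM, and their part in these levels was not tested. The treatment of library 1 is unknown.

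Igfbp5, which led cluster 1, was at 80.2, 207, 657 and 6029 CPM in libraries 1 to 4. It was detected in 5 of the 7 cells of library 4 and in 24 of the 50 of library 2, and fibroblasts of library 4 held 109 CPM. Sparcl1, a matrix protein of vessel walls, was at 3096, 839, 934 and 1924 CPM and 93.8 CPM in fibroblasts, the highest in library 1.

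Proliferation divided clusters 1 and 2. Mki67, a marker of cycling cells, was detected in 93.8% of the 16 cells of cluster 2, and in 30 of all 77 mural-like cells (39.0%, 28.0 to 50.8%). In cluster 1 it was detected in 24.6% of cells at 53.9 CPM, and in cluster 3 in 14 of 27 (51.9%, 31.9 to 71.3%) at 168 CPM, at a median of 41014 UMIs per cell in cluster 3 against 13753 in cluster 1. The summed level of 18 cell cycle genes was 2157 CPM in mural-like cells, 1697 CPM in fibroblasts and 2645 CPM in endothelial cells, and 0 of 16 tested differed 4-fold from fibroblasts. Cluster 2 held 1, 11, 1 and 3 cells of libraries 1 to 4. Of the label genes, Notch3 was at 580.1 CPM and 617 CPM and Pdgfrb at 809.7 and 635 CPM in clusters 2 and 1. The contractile genes Myh11, Tagln and Des were lower in cluster 2, Myh11 at 251 against 618 CPM, Tagln at 1900.5 against 2990.1 CPM and Des at 631 against 1007 CPM, which only describes the clusters.

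Transcripts of other cell types were looked for in the mural-like cells. The 12 endothelial genes summed to 540.1 CPM, with 711, 515, 639 and 420.3 CPM in libraries 1 to 4, against 6788 CPM in endothelial cells. Cdh5 was at 4.44 and 894 CPM, and Egfl7 at 9.62 and 1006 CPM. Pecam1 was at 0 in mural-like cells by the rule, and Pecam1 and Cdh5 chose the endothelial cells. The contrast in Cdh5 and part of that in the sum were thus set by the gates. Esam, the most abundant of the 12 in mural-like cells, was at 234 and 535 CPM. Fabp4, a lipid carrier of endothelium and fat cells, was likewise at 541, 2406, 1136 and 5415 CPM in libraries 1 to 4 and 5697 CPM in endothelial cells, while Adipoq, Cidec and Lep of fat cells were at 0 in the members. In cluster 3 Fabp4 was at 4.75 CPM. The part of endothelial RNA in these levels was not tested. The 14 leucocyte genes summed to 599 CPM against 1027 CPM in fibroblasts, with S100a9 the most abundant at 169 CPM and Ptprc at 0 by the rule. Skeletal muscle, erythrocyte and Schwann cell lists summed to 11.1, 13.3 and 28.9 CPM, with Myh4 and Myh1 at 0. Scrublet, a doublet caller, was run for each library, and removal of the top 5% of scores took 1 of 77 mural-like cells and 0 of 27 cells of cluster 3.

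The 27 cells of cluster 3 were described apart. Beside the 673 fibroblasts of library 3, 51 of 3374 genes (1.51%) were at least 4-fold higher in them and 97 (2.87%) lower. Acta2 was at 975 CPM (95% interval 922 to 1031), which the rule required in part, against 172 CPM in the fibroblasts of library 3. In single cells of cluster 3 it ran from 77 to 3207 CPM with a median of 535 CPM, so a few cells at the upper end raised the summed level above that of the median cell. Tagln (1146 against 99.6 CPM), Mylk, a kinase of myosin (195 against 19.6 CPM), and Des (274 against 31.4 CPM), none of them used by the rule, were also higher. Pericyte genes were mixed, with Kcnj8, Abcc9, Cox4i2 and Foxs1 higher and Notch3 (10.3 against 7.84 CPM) and Mcam (9.50 against 2.34 CPM) under the minimum of 50 CPM in both. Of 12 fibroblast genes tested, 6 were lower, among them Lum at 68.9 against 395 CPM and Clec3b at 2.38 against 62.2 CPM.

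Secreted factors of cluster 3 differed from those of mural-like cells. Il33, an alarmin, was at 3823 CPM (95% interval 3716 to 3933) and at 172 CPM in the 9 mural-like cells of the same library, with 381 CPM in its fibroblasts. Cxcl13, which draws B cells, was at 718 CPM against 6.14 and 13.6 CPM. Grem1, a BMP antagonist, was at 259.7 CPM against 12.3 and 16.2 CPM. Btc, a ligand of the EGF receptor, was at 181 CPM and at 0 UMIs in mural-like cells of all libraries. Il11 was at 1335 CPM against 221 and 573 CPM, and Cxcl5 at 2538 CPM against 86.0 and 1432 CPM. All of these genes were measured in the cells that were clustered, so the values only describe the cluster.

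**Figure D5:**
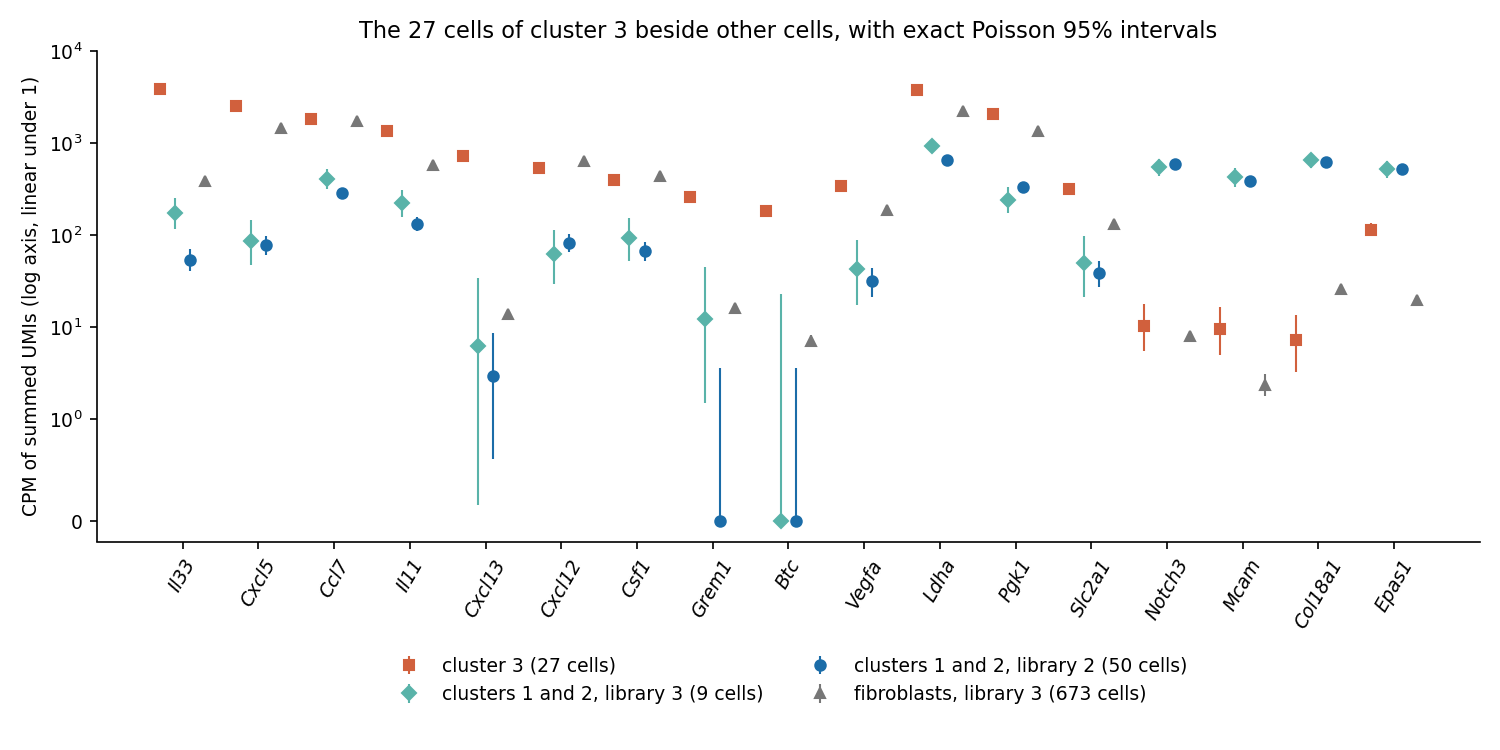
Levels of 17 genes in CPM of summed UMIs, on a log axis that is linear under 1, with exact Poisson 95% intervals, in cluster 3, in the mural-like cells of libraries 3 and 2 and in the fibroblasts of library 3. The mural-like cells of library 3 lie nearer to those of library 2 than to cluster 3 for Notch3, Mcam, Col18a1, Cxcl5, Cxcl13 and Il33.

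Genes of glycolysis and low oxygen were higher in cluster 3 than in mural-like cells. Of 12 tested, 8 were 4-fold higher and 1, Epas1, lower, where 157 (4.27%) and 256 (6.96%) of all 3677 genes were. Ldha was at 3707 CPM in cluster 3, 699 CPM in mural-like cells and 2195 CPM in library 3 fibroblasts. Pgk1 was at 2077, 323 and 1327 CPM in the same order. Against the fibroblasts of library 3, 2 of 12 were higher, Egln3 and Epas1, where 1.51% of all 3374 genes were. The 16 pericyte genes and 10 contractile genes that were lower in cluster 3 than in mural-like cells, of 22 and 19 tested, included Notch3, Mcam, Higd1b and Myh11, with none higher. Rgs5 and Acta2, which the rule used, are on these lists. Genes under 50 CPM in cluster 3 were tested only through the mural-like cells. The clusters were drawn from these same values, so the counts against mural-like cells only describe the clusters.

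Cells like cluster 3 were also found outside the rule, again in library 3. With Btc and Grem1 present and 3 or more Il33 UMIs, 67 cells passed the same exclusions, and all 67 were in library 3. Of these 22 were members, 22 had no Rgs5, 13 had 1 or 2 Rgs5 UMIs, and 21 met the gate for fibroblasts. In the 22 without Rgs5, Acta2 was at 534.6 CPM and Pdgfra was detected in 100% of cells. Tagln was at 463 CPM, Des at 132 CPM, Mylk at 107 CPM and Cxcl13 at 132 CPM in them, each between cluster 3 (1146, 274, 195 and 718 CPM) and the fibroblasts of library 3 (99.6, 31.4, 19.6 and 13.6 CPM). Kcnj8 and Abcc9 were at 26.3 and 56.4 CPM, against 58.6 and 97.4 CPM in cluster 3. The absence of Rgs5 chose these 22 cells. This gate was set after the clusters were seen. Only 21 of the 673 fibroblasts of library 3 were among them, and no cell of another library was.

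Myh11 was used to divide the members as well. Of 101 members with 2000 or more UMIs, 74 held Myh11 and 27 did not, and 17 of the 27 were in library 3. After thinning, 269 of 4251 genes (6.33%) were at least 2-fold higher in Myh11-positive cells and 808 (19%) lower. At 27 thinned cells, 50 CPM is under 3 UMIs, so most of these genes rest on few counts and none is named. Without cluster 3, 10 negative cells with 20000 thinned UMIs remained. Of the 3310 genes then counted as lower, 2879 had fewer than 3 UMIs in these cells and were raised to the floor of 3 (150 CPM). That count is set by the floor and describes no expression.

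The 19 genes of iron, lipid peroxide and antioxidant handling summed to 8224 CPM in mural-like cells, 12424 CPM in fibroblasts and 7956 CPM in endothelial cells. Gpx4, which reduces lipid peroxides, was at 301, 406, 319 and 372 CPM in the mural-like cells of libraries 1 to 4, and 336 and 304 CPM in fibroblasts and endothelial cells. Acsl4, which loads polyunsaturated fatty acids into lipids, was at 34.8 CPM against 85.1 and 35.1 CPM. Of the 13 genes of this list tested against fibroblasts, 0 were higher and 1, Ptgs2, was lower, where 5.08% and 4.95% of all 3680 genes were. A count this near the share over all genes is no finding about the list. The most abundant, Fth1 of iron storage, was at 3717, 4188, 3937 and 4413 CPM, with 7060 CPM in fibroblasts and 4208 CPM in endothelial cells. Values of the 4 libraries are not linked to TIOs or PBS.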

How the data were processed

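Single cells of 4 tumour samples were measured by droplet RNA sequencing. The authors deposited 1 matrix of UMI counts, made with Cell Ranger (6.1.2 per the file header, 3.0.2 per the labels, 2.1.1 in the submitters' processing notes, which also name build mm10). The matrix held 55450 genes and 33064 barcodes, of which 32133 passed the filter, while the labels state 15603 cells. It held 0 other columns of single samples. The gene lists and members were chosen with earlier results of these data known.

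Counts were summed per class and divided by the class total (CPM). A gene was called at 4-fold (2-fold within members) where either class had 50 CPM, and a class with fewer than 3 counts was set to 3. Named genes were the listed genes and, by size of fold, the leading genes. Genes of the Myh11 division were not named because 50 CPM was under 3 UMIs. Aldoa was left out because 2 identifiers share it. Members were clustered with scanpy 1.11.5 (2000 variable genes, 20 components, 15 neighbours, Leiden resolution 0.5, igraph 0.11.9) in Python 3.11.15. The fold step was tested on simulated data. Likely doublets were kept, and removal of the top 5% of Scrublet scores was an alternative. Intervals are exact (Clopper-Pearson for shares, Poisson for CPM).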

Additional observations from a re-analysis of the deposited data

Results flagged for a closer look

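Of the 154 cells with 3 or more UMIs of both Rgs5 and Acta2, 50 were left out by an exclusion and enter no comparison (28 held Ptprc, 24 Pecam1 and 4 keratin at or over the limit). They were looked at because the label genes were present in cells outside the rule. Libraries 1 to 4 held 6, 22, 18 and 4 of them, with a median of 33677.5 UMIs. Pdgfrb was detected in 92%, Notch3 in 68%, Higd1b in 48%, Pdgfra in 46%, Il33 in 50%, Laptm5 of leucocytes in 38% and Cdh5 in 24% of these cells. Doublets and free RNA were not tested as sources.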

How the results depend on the processing

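No paired analysis was possible because the libraries have no link to samples and no test was run. Of the alternatives, 1 was chosen after seeing the data, leaving out the 27 cells of cluster 3. It gave 0.240% of kept cells as members, 84.4% of them with Myh11, and Pdgfrb at 678 CPM. Against fibroblasts 187 genes were higher and 182 lower (98 and 110 with cluster 3). The Myh11 division had 72 higher and 3310 lower genes (269 and 808 with cluster 3). Of the 3310, 2879 had fewer than 3 UMIs in the 10 negative cells left and were raised to the floor of 3, so that count is set by the floor. Over fibroblasts, leaving out cluster 3 turned the log2 fold of Cxcl13 from 3.76 to -3.11 and of Grem1 from 2.31 to -3.52, because these genes were carried by cluster 3.

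Leaving out 1 library at a time gave 54 to 97 members (54 without library 2, 68 without library 3), 0.230 to 0.417% of kept cells, Myh11 in 57.4 to 82.4% of members, Pdgfrb at 277 to 674 CPM, 68 to 190 genes higher and 89 to 206 lower than in fibroblasts, and 67 to 291 higher and 365 to 3375 lower in the Myh11 division. The 3375, without library 3, rested on 10 negative cells in the same way, with 2918 of the genes at the floor. The log2 folds over fibroblasts ran from -3.73 (without library 3) to 4.95 for Cxcl13 and from -3.63 (without library 3) to 3.82 for Grem1.

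A minimum of 2 or 5 UMIs of Rgs5 and Acta2 gave Pdgfrb at 372 or 483 CPM, against 429.9. A minimum of 10 CPM in place of 50 gave 242 higher and 247 lower genes against fibroblasts and 506 and 577 against endothelial cells. Myh11 was found in 72.1% of members, 57.7% with detection at 2 UMIs and 38.6% after thinning to 2000 UMIs. At their own depth the Myh11 division had 181 lower genes. Leiden resolution 1.0 gave 6 clusters in place of 3, with none that mixed cluster 3 with the others. Resolution 0.3 joined the 61 cells of cluster 1 and the 16 of cluster 2 into 1 cluster of 77, with the 27 cells of cluster 3 apart. Where no cause is stated, the cause was not tested. Depth limited the rare transcripts of library 4 most, with 7 members.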
